A study of Mus musculus and Homo sapiens with 12 samples.

Results

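H3K18bu and H4K12bu, butyrylation of lysine 18 of histone H3 and of lysine 12 of histone H4, were compared gene by gene in CCD841 cells, a line from normal human colon. The comparison used the 4 CCD841 libraries among the 12 CUT&Tag libraries of the series, 2 for H3K18bu and 2 for H4K12bu. All 4 came from cells treated with 1 mM sodium butyrate (NaBu) for 12 to 16 h by the sample labels, and no untreated CCD841 library entered. Both marks were mapped in a single cell line, and nothing in the labels says whether the replicates were separate cultures, so p-values below measure the spread between these libraries only. Overlapping peaks of a library were merged to regions, and a consensus region is a merged stretch with a region from both replicates of a mark, which gave 108536 H3K18bu regions over 52.8 Mb and 90476 H4K12bu regions over 41.9 Mb. Genes were the 62663 of GENCODE 44 on GRCh38, of which 20033 were protein-coding.

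Butyrylation is a lysine acylation built from butyryl-CoA, which cells can make from the butyrate that gut bacteria release from dietary fiber. Acylation of the histone tails takes away the positive charge of lysine, and acetyl marks on the same residues are known from promoters, enhancers and the bodies of active genes. CUT&Tag maps a mark by bringing a transposase to it through an antibody, so that nearby DNA is cut and tagged for sequencing.

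Sequences under peaks of each kind are shown first, as examples of where the regions lay. Each is 200 bases of the plus strand of GRCh38 around a summit. Capitals mark matches, on either strand, to 6 short motifs that were searched in all windows: TGANTCA of AP-1, GGAATG of TEAD, CCGGAA of ETS, CCAAT of NF-Y, GGGCGG of Sp factors and TGACGTCA of CREB. The first is the H3K18bu peak of replicate 1 upstream of TEAD2 (chr19:49363425-49363624), which lies in an intron of another annotated gene, has 12 CpG and holds a CCAAT and a GGGCGG match that overlap. The second is the H4K12bu peak of replicate 1 in an exon of AOC2 (chr17:42845276-42845475), with 3 CpG and no match. The third is the peak before FCMR (chr1:206924186-206924385), between genes, which both marks share and which is a run of GT-rich repeats. The next are an intronic H4K12bu peak of AGBL4 (chr1:48698478-48698677), with 1 CCAAT match, and an exonic one of MDN1 (chr6:89718692-89718891). The sixth is an H3K18bu peak at an annotated exon inside TRD-AS1 (chr14:22203235-22203434). The last is an intronic H3K18bu peak of CTNNA1 (chr5:138654724-138654923) with the AP-1 letters, without an H4K12bu region of either replicate, chosen after the values were seen because it holds the motif.
TEAD2, H3K18bu at the start: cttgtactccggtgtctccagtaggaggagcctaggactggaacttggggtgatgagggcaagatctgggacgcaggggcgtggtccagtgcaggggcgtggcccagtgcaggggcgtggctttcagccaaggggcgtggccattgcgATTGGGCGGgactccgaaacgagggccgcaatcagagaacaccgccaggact
AOC2, H4K12bu at the start: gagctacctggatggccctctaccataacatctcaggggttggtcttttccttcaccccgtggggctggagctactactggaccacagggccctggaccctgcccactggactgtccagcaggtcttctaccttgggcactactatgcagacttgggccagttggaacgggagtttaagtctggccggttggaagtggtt
FCMR, both marks at the start: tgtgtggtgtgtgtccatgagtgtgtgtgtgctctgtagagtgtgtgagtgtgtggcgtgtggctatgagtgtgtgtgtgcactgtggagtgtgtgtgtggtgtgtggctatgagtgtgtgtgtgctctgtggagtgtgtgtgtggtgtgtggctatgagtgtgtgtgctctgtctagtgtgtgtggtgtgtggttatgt
AGBL4, H4K12bu in the body: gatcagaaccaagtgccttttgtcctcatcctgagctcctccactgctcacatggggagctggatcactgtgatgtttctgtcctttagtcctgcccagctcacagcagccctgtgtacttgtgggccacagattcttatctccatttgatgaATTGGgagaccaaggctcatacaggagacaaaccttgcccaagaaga
MDN1, H4K12bu in the body: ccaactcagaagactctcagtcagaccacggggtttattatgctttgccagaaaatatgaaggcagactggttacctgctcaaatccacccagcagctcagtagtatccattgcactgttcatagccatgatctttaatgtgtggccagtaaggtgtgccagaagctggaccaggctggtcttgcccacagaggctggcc
TRD-AS1, H3K18bu in the body: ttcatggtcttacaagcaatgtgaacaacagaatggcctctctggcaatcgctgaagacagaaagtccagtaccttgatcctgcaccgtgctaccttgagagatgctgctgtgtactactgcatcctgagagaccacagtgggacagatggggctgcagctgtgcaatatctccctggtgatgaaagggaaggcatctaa
CTNNA1, H3K18bu with TGANTCA: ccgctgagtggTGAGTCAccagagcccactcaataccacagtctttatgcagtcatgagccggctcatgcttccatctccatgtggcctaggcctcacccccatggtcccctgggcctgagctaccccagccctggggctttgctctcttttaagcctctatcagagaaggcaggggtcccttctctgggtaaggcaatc

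The 4 lists were close in length and differed in quality. Peaks numbered 299720, 299691, 299445 and 299296, and 211088, 229104, 207129 and 282656 regions once merged. Wherever 4 values are given, the order is H3K18bu replicates 1 and 2, then H4K12bu replicates 1 and 2. The median lengths of the regions were 236, 198, 237 and 119 bp, and their median −log10 p 7.23, 5.91, 6.56 and 4.04. Both replicates of H3K18bu and replicate 1 of H4K12bu had q below 0.05 at all regions, whereas 54.7% of the regions of H4K12bu replicate 2 did. H4K12bu replicate 2 thus stood apart, and results are given for every library. Read totals are not in the lists and the depth is unknown, but the number of fragments piled up at a peak can be solved from its fold and p, and its median was 15, 12, 15 and 7. Among the 150000 strongest regions of each library, the Jaccard index (shared bases over all covered bases) was 0.348 between the H3K18bu replicates and 0.208 between the H4K12bu replicates. H4K12bu replicate 1 overlapped H3K18bu replicate 1 as much, at 0.212. A two-sided exact permutation test of 2 against 2 libraries cannot go below p = 0.33, so single values are given for all 4 libraries, and tests are limited to fits across genes.

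At gene starts, H3K18bu was the more frequent mark. Of 20033 protein-coding genes, 4026 (20.1%) had a consensus region of H3K18bu only within 1 kb of the start, 696 (3.47%) one of H4K12bu only, and 2249 (11.2%) one of each. These classes rest on consensus regions, so a start with one mark only can still hold a region of the other mark in 1 replicate, or in both where those do not overlap. Each library on its own had a region at 40.3%, 45.6%, 27.8% and 27.3% of protein-coding starts, so that both H3K18bu libraries exceeded both H4K12bu libraries. Where absence meant that neither replicate of the other mark had a region, 1731 genes with H3K18bu only and 299 with H4K12bu only remained. With 1 list standing for a mark, H3K18bu only and H4K12bu only were 6633 and 441 without H3K18bu replicate 1, 5658 and 532 without replicate 2, 3049 and 2253 without H4K12bu replicate 1, and 2534 and 1823 without replicate 2. The classes differed in CpG. The median ratio of observed to expected CpG in 1000 bases around the start was 0.755 for H3K18bu only, 0.738 for both, 0.584 for H4K12bu only and 0.639 for neither.

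The strongest starts with H3K18bu and no H4K12bu region within 1 kb were those of TEAD2, CAV1, CLEC18C, EEF2KMT and PMVK. TEAD2, a transcription factor of the Hippo pathway (chromosome 19, 49340595 to 49362457, minus strand), had −log10 p of 52.3 and 48.6 and folds of 14.3 and 15.4 over the local background in the H3K18bu replicates. Their summits lay at −1068 and −1067 bp from the start, a negative distance being upstream, in the sequence shown above. CAV1, the main protein of caveolae (chromosome 7, 116524994 to 116561179, plus strand), had −log10 p of 38.6 and 36.7 at summits 1299 and 1296 bp after the start, in regions that reach into the window. PMVK, a kinase of the mevalonate pathway of cholesterol synthesis, had 23.3 and 22.9. CLEC18C belongs to a set of near-identical lectin genes, so its reads could be placed in more than one copy. The H3K18bu replicates were close to each other at these genes, which the ranking by the weaker replicate favored. That none had an H4K12bu region in the window was fixed by the choice of genes. At TEAD2, CAV1 and CLEC18C the summits lay outside this window of 1 kb, and H4K12bu at those summits was not examined. The body of CAV1, which begins 1 kb after the start, held 10, 5, 10 and 12 regions.

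The strongest starts with H4K12bu and no H3K18bu had lower −log10 p, in lists whose −log10 p differ in scale. AOC2, a copper amine oxidase (chromosome 17, 42844580 to 42850707, plus strand), led with −log10 p of 15.7 and 12.6 and folds of 5.41 and 6.57, with summits 796 and 793 bp into the gene. The others were ENSG00000268361, ENSG00000205236, UPK3BL1 and SPDYE2B. ENSG00000205236 and UPK3BL1 start within the same stretch of chromosome 7 and share 1 peak, at −log10 p of 14.5 and 9.32. SPDYE2B belongs to a family of near-identical copies and is uncertain in the same way as CLEC18C. None of these H4K12bu peaks reached the lower −log10 p of PMVK. Ranks within each list, as the percent of its regions with a lower −log10 p, differed less. AOC2 stood at 95.8 and 99.7 in the H4K12bu replicates, and PMVK at 98.5 and 99.3 in those of H3K18bu. The other H4K12bu starts stood at 92.8 to 97.5 in replicate 1 and at 98.0 to 99.2 in replicate 2.

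Starts with both marks were led by FCMR, ENSG00000284956, IP6K2, NUDT16 and DOP1B. At NUDT16, a nucleotide hydrolase (chromosome 3, 131381671 to 131388830, plus strand), −log10 p was 45.0, 48.2, 27.9 and 15.3, with summits at −119, −121, 49 and −120 bp from the start. At DOP1B (chromosome 21, 36156782 to 36294274) the 4 summits lay at −212, −207, −218 and −220 bp, with −log10 p of 47.6, 61.9, 22.4 and 15.3. IP6K2, an inositol hexakisphosphate kinase, had 33.8, 23.2, 38.7 and 17.1. At IP6K2 all 4 summits lay 270 to 272 bp after the start. The summits of the marks thus met within a few bases at DOP1B and IP6K2, and at NUDT16 except in H4K12bu replicate 1. H4K12bu replicate 2 had the lowest −log10 p of the 4 at each of these 3 genes. By rank within its own list it was the highest of the 4 at IP6K2, at 99.93. At NUDT16 and DOP1B its rank, 99.88 at each, was above that of H4K12bu replicate 1 and below both H3K18bu replicates.

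Cover of the start window was also compared across 10051 genes by limma on log2(covered bases + 50), with values scaled to the same total. Of these, 1201 (11.9%) were higher for H3K18bu and 459 (4.57%) higher for H4K12bu at an adjusted p below 0.05. In 1142 of the 1201 and 443 of the 459 the other mark covered no base in either replicate, so the calls are close to a count of presence and absence. Those genes passed the filter of a mean of 200 covered bases only through the mark in which they were high, so these counts are a description. Without a filter on low values limma called none in either direction among 29538 genes, with 4143 and 1706 at an unadjusted p below 0.05. Without either H4K12bu replicate the genes higher for H3K18bu numbered 35 (without replicate 1) and 13 (without replicate 2), and without either H3K18bu replicate those higher for H4K12bu numbered 15 and 17. Each fit without a library leaves 1 for a mark, and the spread then comes from the other mark alone. Which direction has more calls can therefore not be read from such fits. The median log2 difference over all genes tested was 0.85 toward H3K18bu, and 1.01 without scaling. It was 0.885 and 0.438 without H4K12bu replicate 1 or 2, and 0.956 and 0.851 without H3K18bu replicate 1 or 2.

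Among the lists of genes followed, AP-1 factors had H3K18bu at most starts. Of 10, FOS, FOSB, FOSL1 and JUND had H3K18bu only, FOSL2 and JUN had both, and no member had a consensus region of H4K12bu only, beside 20.1%, 11.2% and 3.47% of all protein-coding genes. JUN (chromosome 1, 58776845 to 58784048), a subunit of AP-1, had −log10 p of 31.1, 18.5, 7.73 and 3.70. FOSL2 had 17.4, 10.6, 8.13 and 5.47 at summits 360 to 374 bp after the start. At FOS the H3K18bu replicates had 8.78 and 5.31 and no H4K12bu region was listed. TGFBR2, a receptor of TGF-β, carried both marks, at 13.7, 15.9, 10.9 and 7.22. CTNNB1, LEF1, SMAD3 and KLF5 had no region of either mark in any library within 1 kb of the start, and at TCF20, JUNB and SMAD2 no mark had one in both replicates.

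Of 24 genes of adherens junctions and focal adhesions, 8 had H3K18bu only at the start, 2 had H4K12bu only (BCAR1 and TNS3) and 2 had both. ACTN1, NECTIN2 and ZYX, of the first, had no H4K12bu region there, whereas ACTN4 had one in each replicate, at −log10 p of 8.22 and 4.22. AFDN, ITGB1 and PARVA had one in replicate 1, at 5.28, 6.24 and 5.71, and CTNNA1 one in replicate 2, at 4.73. TNS3 had H3K18bu regions in both replicates, at 8.60 and 4.65, beside its H4K12bu regions at 4.98 and 4.13, and BCAR1 one in replicate 1, at 7.04. All shares below stand beside 20.1% of protein-coding genes with H3K18bu only, 3.47% with H4K12bu only and 11.2% with both. Of 20 genes of TGF-β and SMAD signaling, 7 had H3K18bu only, such as ACVR1, BMPR2, SKI and SKIL, and 2 had both. For Wnt and β-catenin the counts of H3K18bu only and both were 4 and 3 of 22, close to those shares, and they were 3 and 3 of 13 for lysine acyltransferases, with KAT6A, KAT7 and NCOA2 in the first, and for histone deacylases 4 and 2 of 17, with HDAC3, HDAC4, HDAC6 and SIRT2 in the first and H4K12bu only at SIRT7. Cytosolic ribosomal protein genes had H3K18bu only at 24 of 88, such as RPL10, RPL10A, RPL11 and RPL15, H4K12bu only at 3 and both at 10. Nuclear subunits of oxidative phosphorylation stood closer to balance, with 9, 8 and 18 of 84, and ATP5F1B, ATP5F1C, ATP5MC1 and ATP5PF among those with both. Genes that handle butyrate and acyl-CoA had both marks at 4 of 17 (ACADS, ACSS3, HADH and SLC16A3) and H4K12bu only at SLC16A1, a monocarboxylate transporter, where an H3K18bu region stood in replicate 2 at −log10 p of 5.55. Zinc finger genes named ZNF had 85, 10 and 47 of 508, replication-dependent histones 5, 0 and 1 of 70, olfactory receptors 17, 19 and 10 of 415, and collagens 7, 0 and 1 of 44.

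Most markers of the labelled cell type had no consensus region at the start, as had most genes, 65.2% of all protein-coding genes having none. Of 16 markers of colon epithelium, VIL1 had H3K18bu only, KRT8 and KRT18, with the same values at their starts, had H4K12bu only, with an H3K18bu region in replicate 2 at −log10 p of 5.58, and 13, with EPCAM and CDH1 among them, had no consensus region. Of 20 fibroblast and mesenchymal markers, 4 had H3K18bu only (COL6A3, FAP, FN1 and TWIST2), beside 20.1% of all, and 3 had both (COL1A2, S100A4 and SPARC), beside 11.2%. H4K12bu regions stood at these 4 starts too, at 7.70 and 5.28 in replicate 1 at COL6A3 and FAP, at 3.40 in replicate 2 at FN1, and at 5.28 and 3.77 at TWIST2. Of 10 smooth muscle markers, ACTA2, ACTG2 and LMOD1 had both. Endothelial markers had 1 start in each class among 10 genes, immune markers 1, 2 and 2 of 12 (among those with H4K12bu only, CD14 had H3K18bu regions in both replicates, at 14.7 and 5.63), and genes of other tissues had APOB alone, with both marks, of 18. These are counts of marked starts and not of RNA, and their part in the differences between the marks was not tested.

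In gene bodies the order turned. The body runs from 1 kb after the start to the gene end, and 18957 protein-coding genes had at least 1 kb of it. H4K12bu only was found in 3760 (19.8%), H3K18bu only in 1770 (9.34%) and both in 8258 (43.6%). The libraries had a region in 64.2%, 67.7%, 75.8% and 80.7% of these bodies. With no region of the other mark in either replicate, 1627 and 316 genes remained. The order turned when an H3K18bu library was left out, with 2073 genes of H4K12bu only and 2896 of H3K18bu only without replicate 1, and 2473 and 2630 without replicate 2, since the other list alone then stood for H3K18bu. Without an H4K12bu library the counts were 5779 and 506 (replicate 1) and 5099 and 758 (replicate 2). Genes with both marks were the longest, with a median of 70.9 kb, beside 23.1 kb for H4K12bu only, 23.5 kb for H3K18bu only and 9.37 kb for neither.

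The number of regions per gene body was then fitted by limma on log2(regions + 1), scaled to the same total per library, over 12720 genes with a body of at least 5 kb and a mean of at least 3 regions. At an adjusted p below 0.05, 3572 genes (28.1%) had more H4K12bu regions and 1778 (14.0%) more H3K18bu regions, and the median log2 difference, H3K18bu minus H4K12bu, was −0.30. Without scaling to the same total the median was −0.45 and the calls were 2291 and 664, a larger share of them toward H4K12bu. The kinds of genes differed. Of the genes with more H4K12bu, 3089 (86.5%) were protein-coding, whereas 944 (53.1%) of those with more H3K18bu were, beside 74.0% of all genes tested. Of 3086 lncRNA genes tested, 25.9% had more H3K18bu and 14.3% more H4K12bu, against 10.0% and 32.8% of 9412 protein-coding genes. Genes that overlap share regions and are not independent. A fit without a library leaves 1 for a mark, and its spread then comes from the other mark alone. The number of calls in such a fit can therefore not be compared with that from all 4 libraries. Without H4K12bu replicate 1 the calls fell to 318 and 790, and without replicate 2 to 608 and 897, for H3K18bu and H4K12bu.

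The genes that follow were named for the size of this difference or for their consensus regions, and a gene could pass the filter on low values through the mark in which it is high, so their counts are a description. The 5 bodies with the largest excess of H3K18bu were those of FER1L6-AS2, TRD-AS1, SNX31, FILIP1 and LINC01799. FER1L6-AS2, an lncRNA gene of 127 kb, held 24 and 28 H3K18bu regions and none of H4K12bu in either replicate, a log2 difference of 4.83 with a pseudocount of 1 region and of 5.80 and 3.88 with 0.5 and 2. TRD-AS1, an antisense gene at the T cell receptor delta locus (chromosome 14, 22197446 to 22484462), held 33, 31, 1 and 2. SNX31, a sorting nexin, held 12, 12, 0 and 0. FILIP1, which encodes a filamin-interacting protein, held 14, 19, 0 and 1, and LINC01799 held 14, 17, 0 and 1. At all 5 the groups did not overlap, which the choice of genes fixed, and no start carried a consensus region of either mark. Without H4K12bu replicate 1 SNX31, FILIP1 and LINC01799 no longer passed, in a fit whose spread came from H3K18bu alone. The difference was then 3.77 at SNX31 and 3.32 at FILIP1, beside 3.77 and 3.76 with all libraries.

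The 5 largest log2 differences toward H4K12bu were in very long genes with almost no H3K18bu region in the body. Over all calls, genes with more H4K12bu had a median length of 68.4 kb and those with more H3K18bu 105 kb, beside 67.9 kb of all tested. AGBL4, a carboxypeptidase that acts on tubulin (1491 kb on chromosome 1, 48532854 to 50023954), had 27 and 92 H4K12bu regions in its body. No H3K18bu region lay there in either replicate, though replicate 1 had one at the start, at −log10 p of 6.54. FOXP2, a forkhead transcription factor (607 kb on chromosome 7, 114086327 to 114693772), had 0, 0, 28 and 87. KCNB2, a potassium channel, had 0, 1, 33 and 66, ENSG00000225689, an lncRNA gene, 0, 0, 15 and 54, and COL19A1, a collagen of 346 kb, 0, 0, 15 and 51. The H4K12bu replicates differed widely at these genes, replicate 2 being the higher at each, and both stood above both H3K18bu replicates, which the choice fixed. Consensus H4K12bu regions in these bodies numbered 8, 13, 10, 5 and 5. Per 100 kb, AGBL4 held 1.81 and 6.17 H4K12bu regions, ENSG00000225689 1.16 and 4.16, and FOXP2 4.62 and 14.3. KCNB2 held 8.25 and 16.5, and COL19A1 4.35 and 14.8. Bodies of protein-coding genes longer than 90.7 kb held 10.2 and 12.98. COL19A1 was classed with an H3K18bu consensus region at its start and had none in its body. The H3K18bu regions listed for its start window, at −log10 p of 6.54 and 4.64, did not overlap each other. Without H4K12bu replicate 1 KCNB2 no longer passed, in a fit whose spread came from H3K18bu alone.

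**Figure D1:**
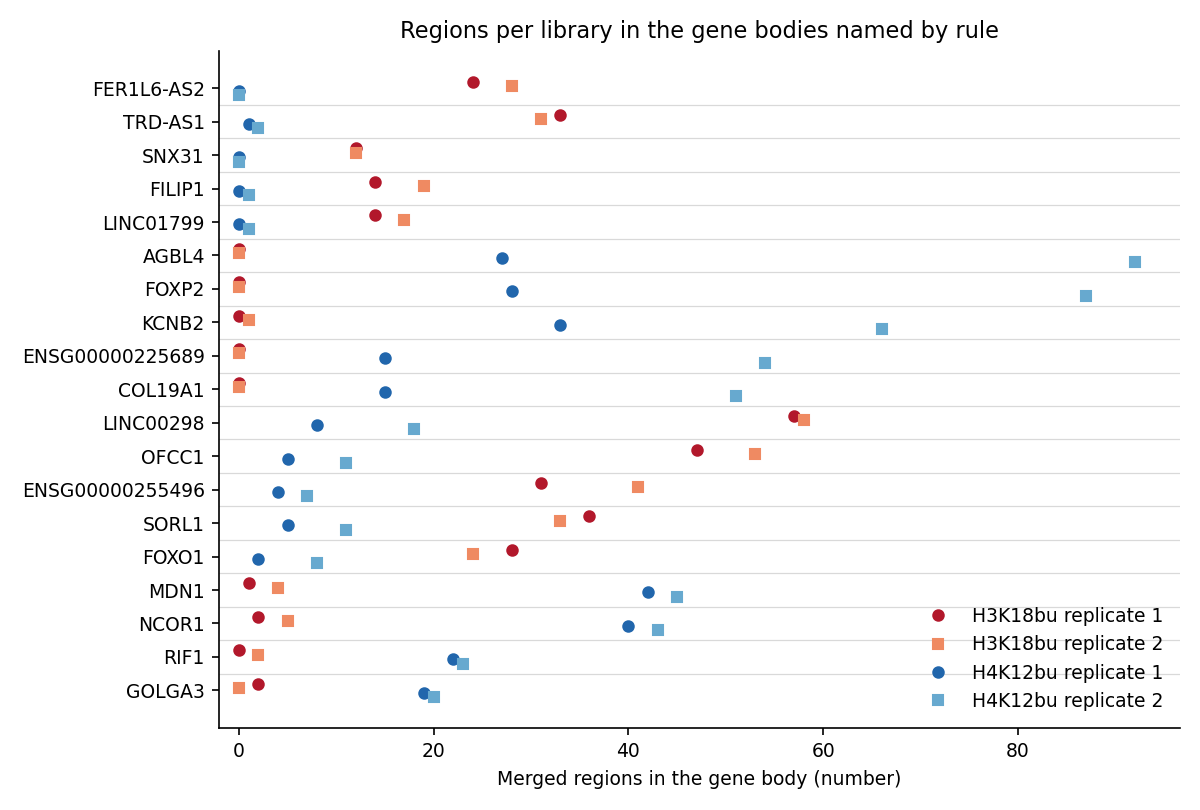
Number of merged regions (x axis) in the gene bodies named by rule (y axis), with 1 point per library. In the first 5 genes and in LINC00298 to FOXO1 both H3K18bu replicates lie to the right, and in AGBL4 to COL19A1 and MDN1 to GOLGA3 both H4K12bu replicates do, with replicate 2 of H4K12bu far above replicate 1 from AGBL4 to COL19A1.

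Among bodies of at least 10 kb, the consensus regions of one mark without any of the other gave a second set of genes. MDN1, a giant ATPase of ribosome assembly (177 kb on chromosome 6, 89642498 to 89819794), held 1, 4, 42 and 45 regions. NCOR1, a corepressor that works with HDAC3, held 2, 5, 40 and 43, RIF1, a regulator of replication timing, 0, 2, 22 and 23, and GOLGA3, a Golgi protein, 2, 0, 19 and 20. The H4K12bu replicates were close at these 4 genes, which the choice by regions found in both replicates could favor. FOXP2, given above, was also in this set. For H3K18bu, LINC00298 held 57, 58, 8 and 18, OFCC1 47, 53, 5 and 11, and ENSG00000255496 31, 41, 4 and 7. SORL1, a sorting receptor of 181 kb on chromosome 11, held 36, 33, 5 and 11, and FOXO1, a forkhead factor of 111 kb on chromosome 13, held 28, 24, 2 and 8. The start window of RIF1 held regions of all 4 libraries, at −log10 p of 18.4, 12.99, 14.9 and 3.77, but those of the H4K12bu replicates did not overlap each other. Without either H4K12bu replicate MDN1, NCOR1, RIF1 and GOLGA3 no longer passed, nor did FOXO1 without replicate 1. The spread in those fits came from H3K18bu alone.

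Of the genes the study follows, LEF1, a transcription factor of Wnt signaling, had more H3K18bu in its 121 kb, with 28, 29, 18 and 19 regions, a difference of 0.73 ± 0.26 (SE, limma, adjusted p = 0.0433). That call was lost without scaling, at an adjusted p of 0.0506 by limma. It was also lost when any one library was left out, where the spread came from the other mark alone. CTNNB1 held 9, 7, 10 and 17 regions (−0.53 ± 0.34, adjusted p = 0.232), SMAD3 27, 36, 41 and 36 (−0.16 ± 0.27, adjusted p = 0.659), TCF20 32, 27, 26 and 25 (0.33 ± 0.27, adjusted p = 0.343) and TGFBR2 20, 18, 18 and 23 (0.04 ± 0.26, adjusted p = 0.926), all by limma. SMAD2 (16, 11, 15 and 23) and FOSL2 (3, 5, 7 and 7) did not pass either, at adjusted p of 0.419 and 0.276 by limma. The replicates of the marks overlapped or met at SMAD3, TGFBR2 and SMAD2 and did not overlap at CTNNB1, TCF20 and FOSL2. The share of all tested genes without overlap was not counted. Such a separation of 2 against 2 libraries has p = 0.33 in a two-sided exact permutation test.

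Lists of enzymes and metabolic genes are given by their counts, as a description. Of 10 lysine acyltransferase genes tested, 5 had more H4K12bu (CREBBP, EP300, HAT1, KAT7 and NCOA3), beside 32.8% of all protein-coding genes, and the median difference was −0.79, beside −0.50. EP300, a histone acetyltransferase that also uses butyryl-CoA, held 1, 3, 19 and 24 regions in 87.5 kb, while its start carried both marks. CREBBP, its paralog, held 11, 23, 41 and 47. Of 12 histone deacylases, HDAC1, HDAC4, HDAC6, HDAC8 and SIRT2 had more H4K12bu (median −0.64), and HDAC4 held 75, 76, 148 and 131 regions. Of 18 nuclear subunits of oxidative phosphorylation, 11 had more H4K12bu, among them SDHA, SDHB, SDHC and UQCRC2, 1 had more H3K18bu (NDUFA12), and the median was −1.59. ZNF genes counted 42 against 2 of 104 (median −0.79), and butyrate and acyl-CoA genes 4 of 9 (ACAT1, ACSS3, SLC16A1 and SLC16A3, median −0.93). EP300, HAT1, KAT7, HDAC1, HDAC6, SIRT2, ACAT1 and SLC16A3 had a mean below 3 regions in H3K18bu, and so passed the filter on low values only through H4K12bu, as could members of the longer lists of oxidative phosphorylation and ZNF genes. Without scaling the medians of these lists kept their sign and fewer genes passed, with 2 acyltransferases, 2 deacylases, 10 subunits of oxidative phosphorylation, 29 ZNF genes and 2 butyrate genes, beside 2291 of all 13089 genes. In these lists, 0 acyltransferases, 0 deacylases, 1 butyrate gene, 1 subunit of oxidative phosphorylation and 6 ZNF genes had more H3K18bu at an unadjusted p below 0.05 by limma.

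Other lists were mixed, and are to be read beside 32.8% of protein-coding genes with more H4K12bu and 10.0% with more H3K18bu. Collagens had 10 genes with more H4K12bu and 7 with more H3K18bu of 39, and COL5A1, COL6A1 and COL6A3 were in the first, COL15A1, COL23A1 and COL26A1 in the second. Without scaling these counts were 6 and 2. Below that share were TGF-β and SMAD genes, with 3 with more H4K12bu of 20 (BMPR2, SKIL and TGFB1), adhesion genes 3 of 21 (ITGAV, TLN1 and VCL), and Wnt genes 2 of 15 (APC and AXIN1) against LEF1. Fibroblast markers had 4 (COL5A1, COL6A1, COL6A3 and FN1) against 2 (PRRX1 and TWIST1) of 14. CDH1 and HNF4A, of 6 colon epithelial markers tested, had more H3K18bu, with 8, 9, 2 and 5 and with 7, 12, 2 and 2 regions, as had ERG, PECAM1 and TIE1 of 7 endothelial markers, where EMCN had more H4K12bu. No start of these 6 genes except EMCN carried a consensus region. RPL39L, of 10 ribosomal protein genes, and OR2F1 and OR9Q1, of 3 olfactory receptor genes, had more H3K18bu. Of 3 AP-1, 9 smooth muscle, 3 immune, 3 other-tissue genes and 1 histone gene tested, limma called none in either direction, and at an unadjusted p below 0.05 there was 1 AP-1 gene and 1 gene of other tissues, both with more H3K18bu. Among the genes called in these lists, SKIL, COL6A1, COL6A5, COL19A1 and COL22A1 had a mean below 3 regions in H3K18bu, scaled to the same total. COL2A1, COL5A3, HNF4A, TIE1 and TWIST1 had one below 3 in H4K12bu. All of these passed the filter only through the mark in which they were high, as could the ribosomal protein and olfactory receptor genes. These counts are a description. Without scaling, adhesion genes with more H4K12bu numbered 1, Wnt genes 1 and TGF-β and SMAD genes 4, LEF1 was not called, and more H3K18bu was called for 1 fibroblast, 1 colon epithelial, 2 endothelial, 1 olfactory receptor and 0 ribosomal protein genes, with EMCN not called.

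Along the gene, H3K18bu was concentrated at the start. Over 14901 protein-coding genes of at least 10 kb, the start base lay in a region at 26.1%, 28.7%, 17.5% and 10.3% of genes. At 500 bp after it the shares were 7.44%, 8.10%, 3.42% and 2.57%. Within 5 kb of the start H4K12bu was lowest just past it, at 0.973% of genes at 1800 bp in replicate 1 and 1.01% at 1400 bp in replicate 2. By 5 kb it had risen to 3.75% and 2.60%, above the 1.73% and 1.82% of H3K18bu. At the gene end all 4 libraries had their lowest value within 5 kb, at 1.04%, 0.926%, 1.70% and 0.913%.

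**Figure D2:**
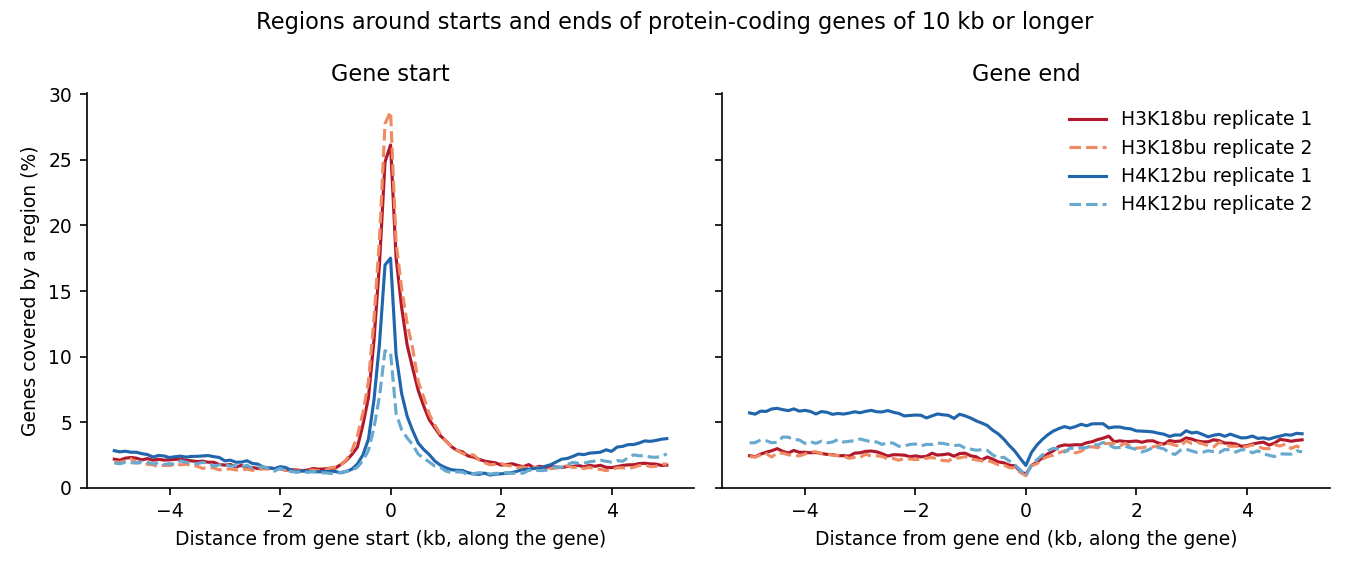
Percent of protein-coding genes of 10 kb or longer whose base at a given distance (kb) from the gene start (left) or end (right) lies in a merged region, with 1 line per library. Both H3K18bu lines peak highest at the start, at 26.1% and 28.7%, the H4K12bu lines fall to about 1% past it and then climb, and all lines dip at the gene end.

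Of the midpoints of regions in these genes, the first 10% of the gene held 10.7%, 10.9%, 7.52% and 8.02%, and the last 10% held 10.3%, 10.0%, 11.9% and 11.2%. The ratio of the last to the first was 0.961, 0.914, 1.58 and 1.40, with both H4K12bu libraries above both H3K18bu libraries. In genes of 10 to 30 kb the contrast was wider, with 18.9% and 20.1% of H3K18bu midpoints in the first 10% of the gene and 6.49% and 6.97% of those of H4K12bu. In genes of 100 kb or longer H3K18bu was nearly even, with ratios of 1.10 and 1.07, and H4K12bu still leaned to the end, with 1.501 and 1.355. Both marks leaned more to the end in genes without H3K18bu at the start than in genes with it. The ratios were 1.25, 1.14, 1.87 and 1.53 without it, and 0.697, 0.694, 1.28 and 1.23 with it. For H3K18bu the split itself draws on regions in the first 10% of the gene.

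**Figure D3:**
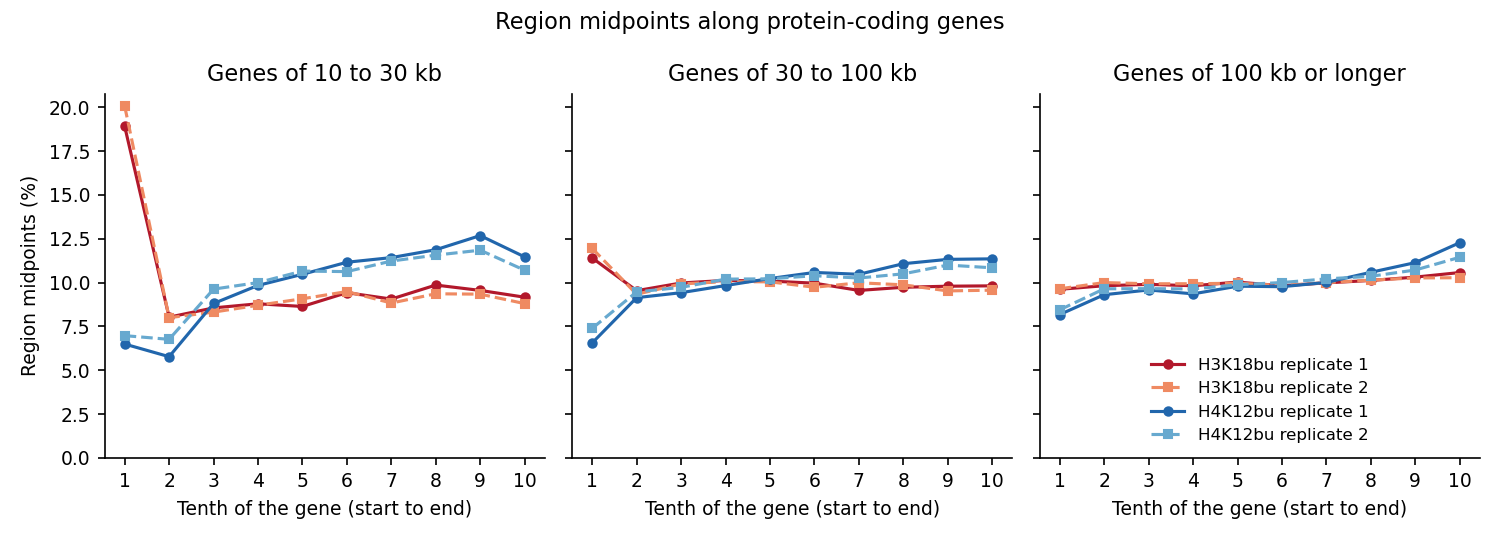
Share of region midpoints (percent) in 10 equal parts of the gene from start to end for protein-coding genes of 3 length classes, with 1 line per library. In genes of 10 to 30 kb the H3K18bu lines begin at 18.9% and 20.1% and the H4K12bu lines at 6.49% and 6.97%, and in genes of 100 kb or longer the H4K12bu lines begin below and end above the H3K18bu lines.

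Cover of gene parts was set against cover of the genome, at which a ratio of 1 means no preference. First exons were covered 6.39, 7.62, 3.46 and 2.45 times as much as the genome, and the kilobase on each side of the start 3.67, 4.33, 2.17 and 1.85 times. Internal exons had the reverse order, at 1.18, 1.20, 3.69 and 2.60, as had coding sequence, at 1.40, 1.46, 3.74 and 2.65, and last exons, at 0.969, 0.925, 2.28 and 1.68. First introns were alike in the 4 libraries, at 1.45, 1.45, 1.44 and 1.32, and sequence between genes was at 0.761, 0.746, 0.450 and 0.598. Percentages behind the internal exons were 2.55%, 2.41%, 7.80% and 4.37% of their bases.

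Cover at internal exons was also set against the sequence around them. At the middle of 145493 internal exons at least 3 kb from both gene ends, 2.20%, 2.04%, 6.43% and 3.66% were covered, and 2 to 3 kb away from the middle the means were 2.29%, 2.16%, 5.17% and 3.27%. Positions 2 to 3 kb away can be intron or another exon. Against this local level the ratio was 0.958, 0.943, 1.24 and 1.12. Cover of H4K12bu rose with exon length, from 5.00% and 2.71% under 100 bases to 15.7% and 8.89% at 500 bases or more, while H3K18bu went from 1.89% and 1.70% to 3.77% and 4.05%. It was also higher where exons stood close together, at 10.2% and 5.17% with the nearest exon within 300 bases and 4.44% and 2.84% with it 3 kb or more away. For H3K18bu these values were 2.62% and 2.42%, and 2.15% and 2.04%.

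**Figure D4:**
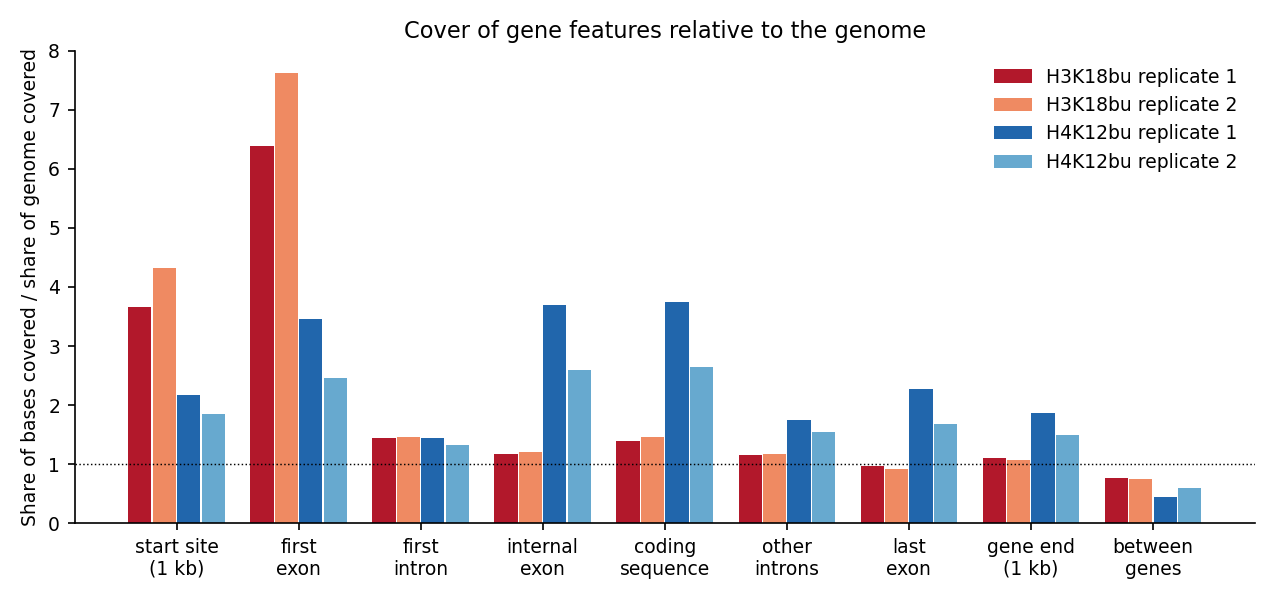
Share of the bases of each gene part covered by merged regions over the share of the genome covered (y axis), with 1 bar per library and a dotted line at 1. H3K18bu bars are tallest at first exons, at 6.39 and 7.62, and H4K12bu bars at internal exons and coding sequence, at 3.69 and 3.74 in replicate 1.

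Density was also compared by gene length. H3K18bu regions per 100 kb of body were even when protein-coding genes were cut by length into 5 classes of equal size, at 7.90 to 8.93 in replicate 1, and in replicate 2 they ran from 8.52 to 9.82. H4K12bu held 13.6, 15.5, 15.2, 14.6 and 10.2 regions per 100 kb from the shortest to the longest class in replicate 1, and 16.1, 16.9, 16.8, 16.2 and 12.98 in replicate 2. In the middle class the difference between the marks was 7.75 regions per 100 kb, and 4.50 with regions of q below 0.05. It was smallest in genes longer than 90.7 kb. In that longest class, genes with H3K18bu at the start held 12.99 and 15.7 H4K12bu regions per 100 kb, and genes without it 8.82 and 11.6. H3K18bu in the body of the same genes was 10.8 and 11.9 with a start region and 8.01 and 8.75 without. Of the genes with H4K12bu only at the start that were fitted, 48.9% had more H4K12bu in the body, beside 40.4% with both marks, 31.4% with H3K18bu only and 30.5% with neither, of 329, 1400, 2281 and 5402 protein-coding genes.

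**Figure D5:**
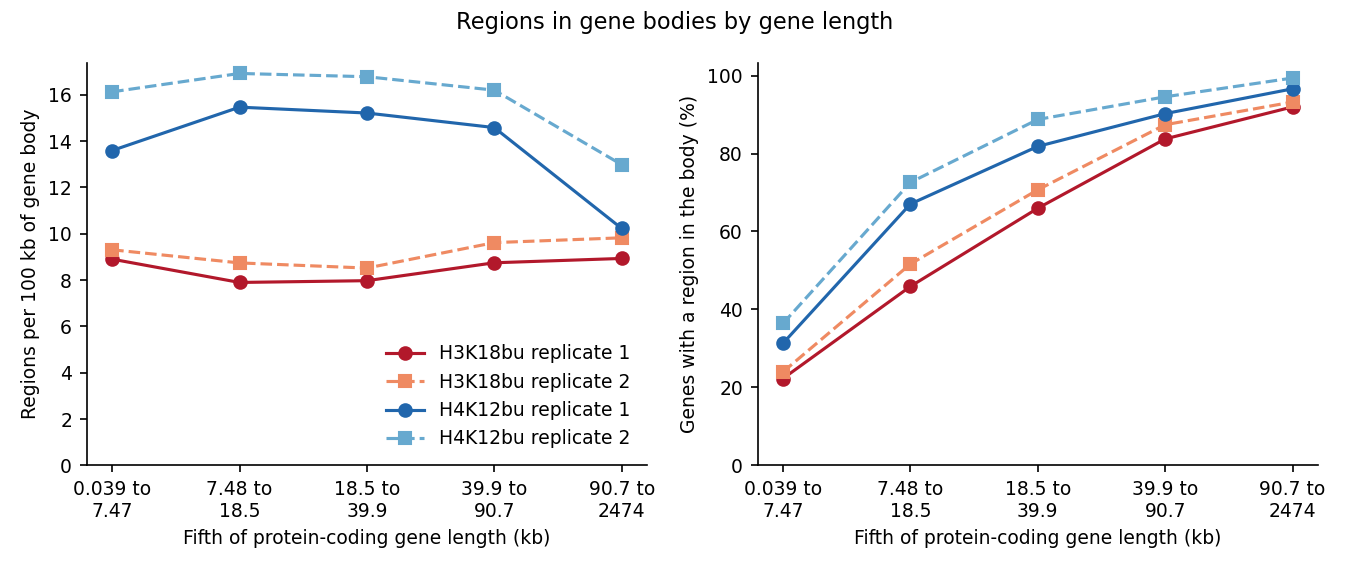
Merged regions per 100 kb of gene body (left) and percent of genes with a region in the body (right) by 5 classes of protein-coding gene length in kb, with 1 line per library. The H3K18bu lines are flat between 7.90 and 9.82 regions per 100 kb, and the H4K12bu lines lie above them and fall in the longest class, to 10.2 and 12.98.

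Starts were also compared by biotype. Consensus regions of H3K18bu and H4K12bu stood at 31.3% and 14.7% of protein-coding starts and at 19.7% and 11.3% of 18866 lncRNA starts. TEC genes, which await experimental support, had 15.4% and 11.8%, and the libraries 24.1%, 23.96%, 23.1% and 22.3%. Consensus shares were 8.41% and 7.54% at processed pseudogenes and 7.63% and 5.84% at snRNA genes, where the libraries had 13.9%, 14.8%, 14.3% and 17.4%, and 12.52%, 12.6%, 12.52% and 15.5%, with H4K12bu replicate 2 the highest in both. Consensus shares of misc_RNA genes were close, at 9.72% and 9.54%, whereas the libraries had 15.3%, 16.9%, 17.8% and 22.02%, both of H4K12bu above both of H3K18bu. At 1879 miRNA genes, which code for short regulatory RNAs, the order was reversed, with 13.04% and 17.2%, and the libraries had 20.6%, 21.1%, 29.3% and 28.7%. The same held for snoRNA genes, guides of RNA modification, at 6.48% and 8.17% of 942. These short genes often lie inside introns of other genes. Among miRNA genes whose start was over 2 kb from any protein-coding start, 11.2% and 17.9% had H3K18bu and H4K12bu.

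Chromosomes differed too. Chromosome 19, the most gene-dense with 25.2 protein-coding genes per Mb, had 37.9 H4K12bu and 28.1 H3K18bu consensus regions per Mb, a ratio of 1.35. Chromosomes 16 and 22 had 1.09 and 1.03, and the other numbered chromosomes lay between 0.739 and 0.951. On chromosome 19, 41.2% of 364 gene bodies tested had more H4K12bu and 7.42% more H3K18bu, beside 28.1% and 14.0% of all. Each library had 57.2, 66.1, 88.2 and 96.0 regions per Mb there.

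The marks shared a part of their regions. Of H3K18bu consensus regions, 34.4% overlapped one of H4K12bu by at least 1 bp, and 41.8% of H4K12bu regions overlapped one of H3K18bu.  With a region in either replicate of the other mark the shares were 64.3% and 61.8%. The share of H4K12bu regions that met H3K18bu was highest at start sites, at 55.8%, then between genes at 49.3%, in introns at 42.3% and in exons away from starts at 26.6%. Of H3K18bu regions, those in exons met H4K12bu most often, at 41.6%, beside 33.9% at start sites, 38.5% in introns and 23.8% between genes. Shared regions were stronger than those of one mark alone, with a median −log10 p of 10.5 against 7.83 and 8.59 against 6.51 in the H3K18bu replicates, and of 9.09 against 7.03 and 4.97 against 4.57 in the H4K12bu replicates.

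Where all 4 libraries had a region, at 38171 stretches, the summits of different marks and of replicates were compared. The median distance was 19 bp between the H3K18bu replicates and 61 bp between the H4K12bu replicates. Between H3K18bu replicate 1 and the H4K12bu replicates it was 19 and 59 bp, and from H3K18bu replicate 2 it was 23 and 71 bp. The larger values all involved H4K12bu replicate 2.

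Base composition was close between the marks, and some of the 6 motifs were not. Windows of 200 bases around summits had a mean GC of 51.1%, 51.0%, 51.6% and 49.7%, beside 40.9% of windows taken every 2 kb from the genome. TGANTCA, searched on both strands, stood in 9.93%, 9.63%, 8.11% and 7.34% of summit windows and in 6.13% of the genome windows. Split by sharing, it stood in 10.3% of windows at the middle of H3K18bu regions alone, in 11.8% and 12.0% of shared regions of H3K18bu and H4K12bu, and in 5.76% of H4K12bu regions alone. GGAATG, the letters of TEAD, stood in 13.2% and 12.96% of the H3K18bu and 11.8% and 11.4% of the H4K12bu summit windows and in 10.9% of the genome windows, with 13.3% of H3K18bu regions alone and 10.2% of H4K12bu regions alone. TGACGTCA of CREB was rare, at 0.185%, 0.182%, 0.122% and 0.103%, beside 0.0684%. CCGGAA stood in 2.60%, 2.64%, 2.54% and 2.09%, GGGCGG in 7.23%, 7.35%, 7.10% and 5.60% and CCAAT in 21.3%, 21.6%, 20.0% and 21.5%, beside 1.27%, 2.84% and 27.2% of the genome windows. At the summits of exons away from starts TGANTCA was in 9.91% and 9.18% of the H3K18bu windows and in 6.44% and 5.93% of the H4K12bu windows. A match is a description of letters and not of binding, and the CTNNA1 window above is an example with TGAGTCA.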

How the data were processed

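CUT&Tag libraries of CCD841 cells were compared as the authors' MACS narrowPeak lists, 1 per library, called per sample. The submitters' processing notes name bcl2fastq 2.17.1, cutadapt 1.9.1, Bowtie2 2.3.1, MACS2 2.1.0 and hg38. The deposited lists give each peak's fold enrichment (a ratio of pileup to local background) and its −log10 p and −log10 q. No read totals are given, so the depth is unknown. The members and gene lists were chosen with earlier results of these data known.

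Overlapping peaks were merged per library with Python 3.11.15, numpy 2.4.6 and pandas 2.3.3, and set against GENCODE 44. Genes were compared in R 4.3.3 with limma 3.58.1 (trend), Benjamini-Hochberg adjustment and a threshold of 0.05. Body counts took log2(regions + 1) and start windows log2(covered bases + 50), for genes with a mean of at least 3 regions (bodies of at least 5 kb) or 200 covered bases.

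Genes were named by rule. At starts these were the 5 protein-coding genes per class with the highest −log10 p in the weaker replicate, where absence meant no region in either replicate of the other mark. In bodies they were the 5 largest differences in each direction past the threshold and the 5 bodies of at least 10 kb with the most consensus regions of one mark and none of the other. To these were added the genes the study follows and members of 19 lists. CTNNA1 and genes named for passing the test within a list were chosen after their values were seen. Alternatives were q below 0.05, the 150000 strongest regions, other windows, pseudocounts, filters and scaling, strict absence, a replicate block and leaving out each library.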

Additional observations from a re-analysis of the deposited data

How the results depend on the processing

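Which mark was more frequent did not change under q below 0.05, the strongest regions and strict absence at starts and in bodies, nor under the other windows at starts, but it did when some libraries were left out. At starts, strict absence left 1731 genes with H3K18bu only and 299 with H4K12bu only. H4K12bu only rose to 1390 with a 3 kb window and to 2101 with every transcript start, where both numbered 4999, against 1445 with the 150000 strongest regions. In bodies strict absence left 316 and 1627. The limma calls in bodies, H3K18bu then H4K12bu, were 664 and 2291 without scaling and 1046 and 2104 with the strongest regions. In start windows without a filter there were 0 and 0, with 4143 and 1706 at an unadjusted p below 0.05. With the replicate block, limma called 1961 and 3872 in bodies and 1211 and 480 at starts. The labels share only a number, and same-numbered libraries deviated together with r of 0.0042 and 0.0172 across genes, which are not independent replicates. The ratio of the last to the first 10% of the gene, H4K12bu minus H3K18bu, was 0.686 with the strongest regions and 0.41 in genes of at least 50 kb. The density difference in the middle length class, 7.75, was 4.50 regions per 100 kb with q below 0.05 and 5.29 with the strongest regions, the difference in marked protein-coding starts −20.6 percentage points with q below 0.05, and that of TGANTCA −2.53 with the strongest regions. With either replicate of the other mark, 64.3% of all and 65.9% of start H3K18bu regions were shared, and 61.8% and 72.8% of H4K12bu regions. With a reciprocal overlap these were 24.0%, 24.2%, 28.8% and 39.7%. The causes were not tested.

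Leaving out 1 library at a time gave 2534 to 6633 starts with H3K18bu only, 441 to 2253 with H4K12bu only and 2413 to 3741 with both, and in bodies 506 to 2896, 2073 to 5779 and 9270 to 9945. More bodies had H3K18bu only than H4K12bu only without either H3K18bu library, where 1 list stood for the mark. The limma calls ranged from 318 to 1113 and from 790 to 2899 in bodies, and from 13 to 1234 and from 15 to 529 at starts, where calls toward H4K12bu were the more frequent without either H4K12bu library. Each of these limma fits leaves 1 library for a mark, and its spread comes from the other mark alone. Neither the order of the 2 directions nor a drop in calls can therefore be read from them. The ratio along the gene ranged from 0.460 to 0.647, internal exons from 1.41 to 2.50, density from 6.97 to 8.53, starts from −18.0 to −12.7 and TGANTCA from −2.44 to −1.67. Among named genes, body differences that did not pass the test changed sign at CAV1 (−0.924 to 0.0596 without 1 library), SMAD3 (−0.469 to 0.15), CLEC18C (−0.12 with q below 0.05, −0.0498 without scaling, −0.307 to 0.412 without 1 library) and TGFBR2 (−0.17 and −0.0963 likewise, −0.0931 to 0.164 without 1 library). Without scaling LINC00298, SORL1 and FOXO1 had adjusted p of 0.0502, 0.0502 and 0.0763 by limma. H4K12bu replicate 2, with weak and short regions, and the unknown depth limit every statement on the absence of a mark.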
